A study of Mus musculus with 39 samples.

Results

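The ERK feedback genes described here are 9 transcripts that cells are known to induce when the ERK branch of MAP kinase signalling is active. They are the ETS transcription factor genes Etv4 and Etv5, the MAP kinase phosphatase genes Dusp4, Dusp5 and Dusp6, the Sprouty genes Spry1, Spry2 and Spry4, and Phlda1. They were chosen by name, with earlier results of these data known. Counts of called members beside shares of all genes are therefore a description and no test of the list. All 9 of 9 had a probe set among the 18194 named genes on 39 Affymetrix mouse arrays. Each gene was read from 1 probe set, the one with the highest mean over the 39 arrays. Values are the deposited log2 values, on which a difference of 1 is a 2-fold change, and levels of different probe sets cannot be compared with each other.

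Growth factor receptors pass their signal through RAS, RAF and MEK to the kinase ERK, which phosphorylates transcription factors in the nucleus. Among the transcripts that follow are those of factors that carry the response further, such as Etv4 and Etv5, and those of proteins that dampen the pathway, such as the DUSP phosphatases and the Sproutys. In the mammary gland, ligands of the FGF and EGF families act through this pathway on the growth and branching of the epithelium.

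The 39 arrays held tissue samples of 6 groups, 1 array per sample. The quadruple group, labelled SB/Tg/K5Cre/Bcat, had 19 breast arrays of 15 animals. Breast of 8 animals labelled SB/Tg/k5Cre gave the 8 arrays called triple K5Cre here, and breast of 2 animals labelled SB/Tg/Bcat gave the 3 arrays called triple Bcat. A further 2 breast arrays came from masses of 2 bcat +/- animals. Ventral tumours were sampled 3 times in a single Bcat +/- animal, so the spread of that last group is within an animal. Titles of the masses and ventral tumours carry the mark C57, and those of the other groups do not. Whether C57 names a strain is not stated. In comparisons with these 2 groups the part of this mark cannot be told apart from that of genotype and tissue. Normal mammary gland gave 4 arrays of 4 animals, 2 of them triple K5Cre, 1 quadruple and 1 triple Bcat. All 4 gland samples therefore carried SB and Tg, as did the quadruple and triple groups, and no gland without these elements was analysed here. The labels do not spell out the 4 elements, and neither age nor treatment is given. Sleeping Beauty, named in the title of the series, is a transposon used to find cancer genes by insertion. Quadruple and triple samples are given as breast tissue, and whether it was tumour tissue is not stated. Animals were read from the identifiers in the sample titles, and nothing else ties arrays to animals or days.

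Some arrays stood apart. Xist, the RNA of the inactive X chromosome, read 5.64 and 6.999 in the gland and the breast array of animal T627 and 5.72 in quadruple array 5, against at least 10.77 on the other 36 arrays. Quadruple array 2 had an adipocyte marker mean of 11.80, as high as the lowest gland (11.79), and quadruple array 9 reached 10.58, whereas all other breast and tumour arrays lay at 8.42 or below. Epcam, an epithelial adhesion gene, lay between 8.13 (quadruple array 8) and 13.30 over all arrays. The 2 quadruple arrays of animal Q190 correlated at 0.9959 over all probe sets, the highest of any pair, and no pair was identical. In the group tests both entered as arrays of 1 animal, joined by a block correlation of 0.329. The correlations over animals used their mean.

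Against normal gland the feedback genes did not move as a block: some ETS and phosphatase genes were higher, and the Sproutys and Phlda1 did not pass the test in any group. In the quadruple arrays 3 of 9 passed, all higher (Etv4, Dusp5 and Dusp6), where 5.70% of all genes tested were called higher and 15.4% in either direction. In the triple K5Cre arrays 4 of 9 passed, all higher (Etv4, Etv5, Dusp5 and Dusp6), beside 7.44% of all genes higher and 17.2% in either direction. In the triple Bcat arrays 1 of 9 passed (Dusp5, higher), beside 1.74% higher and 7.12% in either direction. In the masses 0 of 9 passed, beside 7.28% of all genes in either direction. In the ventral tumours 0 of 9 passed, beside 4.03% in either direction. At an unadjusted p under 0.05 the masses had 3 members (Etv4, Dusp5 and Dusp6, all higher), beside 21.2% of all genes, and the ventral tumours 3 (Dusp5 higher, Dusp4 and Phlda1 lower), beside 18.7%. The members' median fitted log2 difference from gland was 0.54 in quadruple, 0.76 in triple K5Cre, 0.02 in triple Bcat, 0.29 in the masses and 0.16 in the ventral tumours, while the median of all genes lay between -0.01 and 0.02. All 5 comparisons share the same 4 gland arrays. Calls are limma tests adjusted by Benjamini-Hochberg over all genes at 0.05, and the arrays' number limits their precision.

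**Figure D1:**
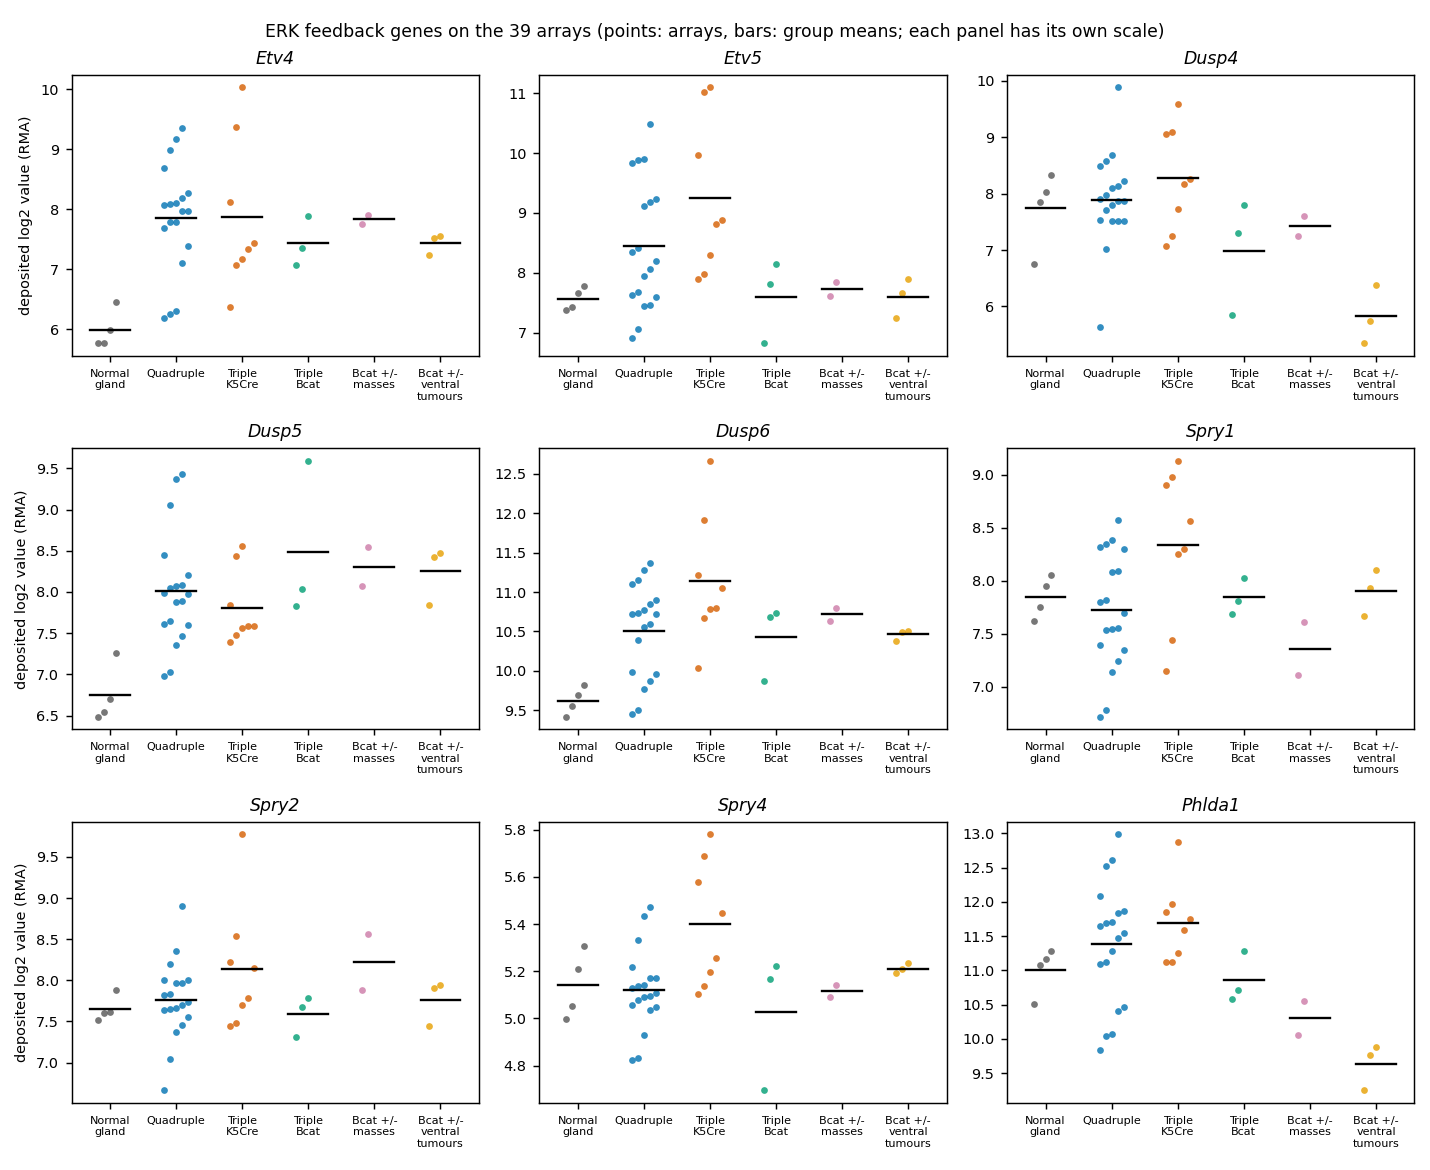
Deposited log2 value of each of the 9 genes (vertical axis, own scale in each panel) in the 6 groups (horizontal axis); each point is an array and the bar is the group mean. All gland arrays of Etv4 lie at or below 6.45, and Dusp4 and Phlda1 have their lowest group means in the ventral tumours. The Spry4 probe set used stays between 4.70 and 5.78 throughout.

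Markers of several cell types moved beside the members in the comparisons with gland, those of fat, muscle and mitosis most often. The mean of 8 measured adipocyte markers ran from 11.79 to 12.11 in gland, from 5.32 to 11.80 in quadruple, from 5.31 to 8.42 in triple K5Cre, from 5.91 to 7.93 in triple Bcat, from 5.71 to 6.21 in the masses and from 5.99 to 6.50 in the ventral tumours. All 8 of 8 adipocyte and all 10 of 10 skeletal muscle genes were called lower in quadruple and in triple K5Cre, and all 9 of 9 measured mitosis genes were called higher in both. The mitosis mean ran from 5.45 to 6.73 in gland, from 6.64 to 9.22 in quadruple and from 7.39 to 9.19 in triple K5Cre. Of 8 endothelial markers 6 were called lower in quadruple and 2 in triple K5Cre (median differences -1.09 and -0.97), and of 8 fibroblast markers 3 and 4 (medians -1.33 and -1.44). All 9 measured squamous markers had positive differences in each of the 5 groups, with medians of 2.88 to 6.18, of which 1 was called, in quadruple. In these bulk samples fewer cells of a type and less RNA per cell cannot be told apart, and neither can the fall in fat and muscle signal and the contrast of breast or tumour samples with gland. The part of the endothelial, fibroblast, squamous and mitosis markers was not tested. With the adipocyte and muscle means as covariates no member passed against gland in any group, and the share of all genes called fell to 0.28% in quadruple, 0.22% in triple K5Cre and 0.02% in triple Bcat. The fitted differences then were -0.02 for Etv4, -0.04 for Dusp6 and 0.87 for Dusp5 in quadruple, and -0.06, 0.56 and 0.69 in triple K5Cre. Dusp5 in triple Bcat then differed by 1.46 (95% interval 0.13 to 2.78, adjusted p = 0.390), against 1.88 without the covariates. Quadruple array 2, with fat markers at the level of gland, had Etv4 at 6.25, Dusp5 at 6.98 and Dusp6 at 9.50, all within the range of the gland arrays. Quadruple array 9, the next in fat markers, had Etv4 at 6.29 and Dusp6 at 9.45, also within that range, and Dusp5 at 8.21, above it. Quadruple array 3, with fat markers at 5.88, also read within the gland range in Etv4 (6.18) and Dusp6 (9.77), and above gland at 8.44 in Dusp5. Without quadruple array 2, 3 of 9 members passed in quadruple, with Dusp6 at 1.06 (adjusted p = 0.0156).

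**Figure D2:**
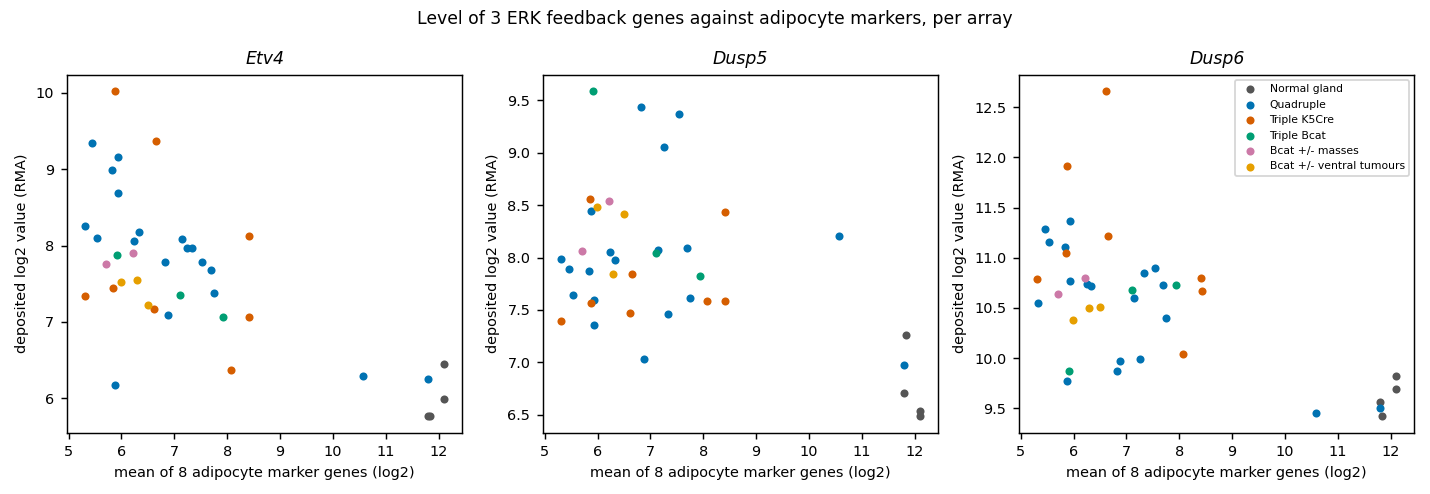
Deposited log2 value of Etv4, Dusp5 and Dusp6 (vertical axes) against the mean of 8 adipocyte markers (horizontal axis, log2) on the 39 arrays, coloured by group. The 4 gland arrays sit at 11.79 to 12.11 with quadruple array 2, and quadruple array 9 lies at 10.58. The other arrays spread widely in each gene at marker levels of 8.42 or below.

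Etv4 and Etv5 encode ETS factors of the PEA3 group, which act downstream of FGF and other receptors. Etv4 read 5.99, 5.77, 6.45 and 5.77 in the 4 gland arrays. It ran from 6.18 through a median of 7.97 to 9.34 in quadruple, and 16 of 19 arrays lay above every gland. In triple K5Cre it ran from 6.37 through 7.39 to 10.03, with 7 of 8 arrays above every gland. It read 7.88, 7.35 and 7.07 in triple Bcat, 7.76 and 7.90 in the masses, and 7.52, 7.23 and 7.55 in the ventral tumours. Every array of these 3 groups was above every gland, and the means of the 5 groups ran from 7.43 to 7.86, closer to each other than arrays within quadruple (SD 0.91) or triple K5Cre (SD 1.24). Etv4 rose by 1.81 (SE 0.49, 3.51-fold, adjusted p = 0.00949) in quadruple and by 1.82 (SE 0.51, 3.52-fold, adjusted p = 0.0113) in triple K5Cre. In triple Bcat, the masses and the ventral tumours the fitted differences were 1.44 (adjusted p = 0.235), 1.79 (0.166) and 1.40 (0.367). In quadruple the call held in 12 of 12 alternatives without covariates, and in triple K5Cre it was lost without gland array 4 (adjusted p = 0.0561). The second Etv4 probe set, which correlated at 0.90 with the first over the arrays, differed by 0.87 in quadruple (adjusted p = 0.142) and 0.97 in triple K5Cre (adjusted p = 0.110) and was not called.

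Etv5 passed against gland in triple K5Cre only. Quadruple minus triple K5Cre was -0.74 (95% interval -1.57 to 0.08, limma adjusted p = 0.995). Triple K5Cre was not fitted against triple Bcat, the masses or the ventral tumours. Etv5 read 7.66, 7.42, 7.79 and 7.38 in gland. It ran from 6.90 through 8.20 to 10.50 in quadruple, where 12 of 19 arrays were above every gland and 2 below. In triple K5Cre it ran from 7.90 through 8.85 to 11.10, and all 8 arrays were above every gland. It read 6.82, 7.81 and 8.15 in triple Bcat, 7.84 and 7.61 in the masses, and 7.24, 7.66 and 7.90 in the ventral tumours, so these 3 groups overlapped gland. Etv5 rose by 1.81 in triple K5Cre (SE 0.54, 3.52-fold, adjusted p = 0.0159). The difference of 1.07 in quadruple did not pass (SE 0.52, adjusted p = 0.172), and those of the other groups were 0.08, 0.29 and 0.16 (adjusted p of 0.890 to 0.973). All 3 Etv5 probe sets were called in triple K5Cre in a fit over all probe sets (adjusted p = 0.0196, 0.0179 and 0.0280). The triple K5Cre call was lost without gland array 3 (adjusted p = 0.0775) and without triple K5Cre array 2 (0.0704), the array with the highest Etv5. It was also lost without the animal block (0.0557), on means per animal (0.0648) and without the 3 arrays low in Xist (1.48, 0.122), and 8 of 13 alternatives without covariates or the pairing of animals kept it.

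Dusp6 encodes a cytoplasmic phosphatase that acts on ERK and whose transcript is a common readout of FGF signalling. It read 9.69, 9.42, 9.82 and 9.56 in gland. It ran from 9.45 through 10.72 to 11.37 in quadruple, with 16 of 19 arrays above every gland, and from 10.04 through 10.92 to 12.66 in triple K5Cre, with all 8 above. It read 9.87, 10.68 and 10.73 in triple Bcat, 10.64 and 10.80 in the masses, and 10.38, 10.51 and 10.50 in the ventral tumours, where the 3 samples of the animal lay within 0.13. None of these arrays overlapped gland. Dusp6 rose by 1.61 in triple K5Cre (SE 0.33, 3.04-fold, adjusted p = 6.19e-04), a call kept in 13 of 13 alternatives without covariates or the pairing of animals, and by 0.99 in quadruple (SE 0.32, 1.99-fold, adjusted p = 0.0305). The quadruple call was lost when any of the 4 gland arrays was left out, with adjusted p of 0.0553 without array 1, 0.0886 without array 2, 0.122 without array 3 and 0.0569 without array 4. It was also lost without the animal block (0.89, adjusted p = 0.0506), on means per animal (0.92, 0.0596) and without the 3 arrays low in Xist (0.95, 0.0698). The differences of 0.83 in triple Bcat, 1.18 in the masses and 0.93 in the ventral tumours did not pass (adjusted p = 0.303, 0.159 and 0.354).

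Dusp5 encodes a nuclear phosphatase of ERK and was the member called in most groups. It read 6.49, 7.26, 6.54 and 6.71 in gland, from 6.98 through 7.98 to 9.43 in quadruple with 17 of 19 arrays above every gland, and from 7.39 through 7.59 to 8.56 in triple K5Cre with all 8 above. It read 9.59, 8.04 and 7.83 in triple Bcat, 8.07 and 8.54 in the masses, and 8.48, 8.42 and 7.85 in the ventral tumours. All of these arrays lay above every gland, and triple Bcat array 1 was the highest of the 39. Dusp5 rose by 1.26 in quadruple (SE 0.33, 2.39-fold, adjusted p = 0.00720), by 1.10 in triple K5Cre (SE 0.34, 2.14-fold, adjusted p = 0.0226) and by 1.88 in triple Bcat (SE 0.49, 3.67-fold, adjusted p = 0.0137). The differences of 1.59 in the masses (SE 0.52, adjusted p = 0.0572) and 1.53 in the ventral tumours (SE 0.54, adjusted p = 0.101) did not pass. The triple K5Cre call was lost without gland array 1, 3 or 4 (adjusted p = 0.0637, 0.0848 and 0.0894), with cyclic loess normalization (0.0568) and without the arrays low in Xist (0.0817), and the triple Bcat call without triple Bcat array 1 (1.22, adjusted p = 0.341). Neutrophil markers were high beside it in the last 3 groups: their list mean of 6 measured genes ran from 9.64 to 10.95 there and from 5.78 to 7.17 in gland. Their part in these differences was not tested.

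The upstream windows of Dusp5, Dusp6 and Etv5 are shown as a description of their letters. RefSeq windows of build GRCm38.p6, 250 bases before the annotated start, were held for 5 of the 9 genes (6 windows; Etv5 has 2). The ETS core CCGGAAG and the AP-1 letters TGACTCA, searched on both strands, were in none of the 6, and in 6.91% and 4.46% of all 32851 windows of this length. Searches for the shorter letters GGAA (or TTCC on the other strand), which the ETS core contains, and for the CArG box, the binding motif of serum response factor, were added after the sequences were seen. In the Dusp5 window (chr19:53528895-53529144, plus strand) capitals mark 2 CArG boxes that follow each other directly. Their first bases lie 82 and 72 bases before the start, and GGAA or TTCC is left in lower case in this window. In the Dusp6 window (chr10:99262981-99263230, plus strand) and in the Etv5 window with matches (chr16:22438369-22438618, minus strand) capitals mark GGAA or TTCC.
Dusp5: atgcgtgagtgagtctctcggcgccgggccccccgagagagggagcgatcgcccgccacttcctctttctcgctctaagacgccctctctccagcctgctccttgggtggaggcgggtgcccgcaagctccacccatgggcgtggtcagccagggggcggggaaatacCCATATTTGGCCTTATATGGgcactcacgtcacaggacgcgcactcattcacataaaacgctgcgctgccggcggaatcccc
Dusp6: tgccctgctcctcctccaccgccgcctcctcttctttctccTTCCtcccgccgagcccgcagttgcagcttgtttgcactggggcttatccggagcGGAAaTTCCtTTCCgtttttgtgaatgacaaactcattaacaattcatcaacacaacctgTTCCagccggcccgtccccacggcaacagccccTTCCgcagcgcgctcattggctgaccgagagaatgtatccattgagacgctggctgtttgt
Etv5: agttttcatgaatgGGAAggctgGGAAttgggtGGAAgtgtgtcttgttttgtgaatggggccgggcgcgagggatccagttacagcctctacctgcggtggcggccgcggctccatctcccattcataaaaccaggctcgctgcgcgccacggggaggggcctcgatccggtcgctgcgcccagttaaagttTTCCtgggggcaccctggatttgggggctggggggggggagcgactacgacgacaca
A CArG box was in 1.47% of all windows, 2 or more were in 6 windows (0.018%), and of the members' windows only that of Dusp5 held any. GGAA or TTCC occurred 6 times in the Dusp6 window, 3 times in that of Dusp5, 4 times and 0 times in the 2 of Etv5, 3 times in that of Spry2 and 1 time in that of Spry1. These letters are common: 93.45% of all windows held them, with a median of 3 and a range of 0 to 6 between the 5th and 95th percentile. The matches describe the letters of these windows only.

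Dusp4, whose product is a nuclear phosphatase of ERK and other MAP kinases, was below gland on every ventral tumour array but did not pass the test. It read 6.76, 8.04, 8.34 and 7.85 in gland, a wide spread. It ran from 5.64 through 7.87 to 9.88 in quadruple and from 7.07 through 8.21 to 9.59 in triple K5Cre, and both overlapped gland. It read 5.84, 7.80 and 7.31 in triple Bcat, 7.61 and 7.25 in the masses, and 5.74, 5.35 and 6.39 in the ventral tumours. All 3 ventral tumour arrays, samples of 1 animal, were below every gland array. The difference from gland was -1.97 in the ventral tumours (SE 0.74, adjusted p = 0.126) and between -0.92 and 0.45 in the other 4 groups (adjusted p of 0.443 to 0.883), and none passed. Without the animal as a block, which treats the 3 samples as independent, the ventral tumour difference passed (-1.92, adjusted p = 0.0357).

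The Sprouty proteins interrupt signalling between receptors and RAF. Spry1 read 8.05, 7.62, 7.76 and 7.95 in gland and ran from 6.72 through 7.70 to 8.57 in quadruple and from 7.15 through 8.43 to 9.13 in triple K5Cre. It read 8.03, 7.69 and 7.81 in triple Bcat, 7.11 and 7.61 in the masses, and 7.67, 7.94 and 8.11 in the ventral tumours. Both masses were below the lowest gland, and 9 of 19 quadruple arrays were below and 7 above the gland range. The differences from gland were -0.11 in quadruple and 0.48 in triple K5Cre (SE 0.29, adjusted p = 0.267), and -0.50 in the masses (adjusted p = 0.565).

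Spry2 read 7.88, 7.60, 7.52 and 7.61 in gland. It ran from 6.66 through 7.74 to 8.91 in quadruple and from 7.44 through 7.97 to 9.77 in triple K5Cre. It read 7.31, 7.79 and 7.67 in triple Bcat, 8.56 and 7.88 in the masses, and 7.45, 7.90 and 7.95 in the ventral tumours. The breast array of T627, at 9.77, stood well above the next triple K5Cre array at 8.54. The difference from gland was 0.61 in triple K5Cre (SE 0.30, adjusted p = 0.170) and 0.24 in quadruple (adjusted p = 0.661).

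The Spry4 probe set used stayed in a narrow band. It read 5.21, 5.05, 5.31 and 4.996 in gland, 4.82 to 5.47 in quadruple and 5.11 to 5.78 in triple K5Cre, with means of 5.12 and 5.40. Its difference from gland was 0.27 in triple K5Cre (SE 0.12, adjusted p = 0.118) and lay between -0.08 and 0.08 in the other groups. Of the 4 Spry4 probe sets, the other 3 correlated at 0.30 to 0.72 over the arrays with the one used. The set at 0.72 had a similar mean over the arrays (5.09 against 5.18) and spread more (SD 0.67 against 0.22). Its group means ran from 4.10 in the masses through 5.24 in gland to 5.61 in triple K5Cre. Whether the values of these sets are above background was not tested.

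Phlda1, an ERK-induced gene that codes for a protein with a pleckstrin homology-like domain, stood above gland in some groups and below it in others, without passing the test. It read 11.08, 11.17, 10.50 and 11.29 in gland and ran from 9.84 through 11.54 to 12.98 in quadruple and from 11.12 through 11.67 to 12.87 in triple K5Cre. It read 10.58, 11.28 and 10.71 in triple Bcat, 10.56 and 10.06 in the masses, and 9.25, 9.77 and 9.88 in the ventral tumours. All 3 ventral tumour arrays were below every gland array, and 5 of 8 triple K5Cre arrays were above every gland array. The differences from gland were 0.76 in triple K5Cre (SE 0.39, adjusted p = 0.192), 0.54 in quadruple (adjusted p = 0.384), -0.63 in the masses (adjusted p = 0.600) and -1.31 in the ventral tumours (SE 0.62, adjusted p = 0.246), and none passed.

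**Figure D3:**
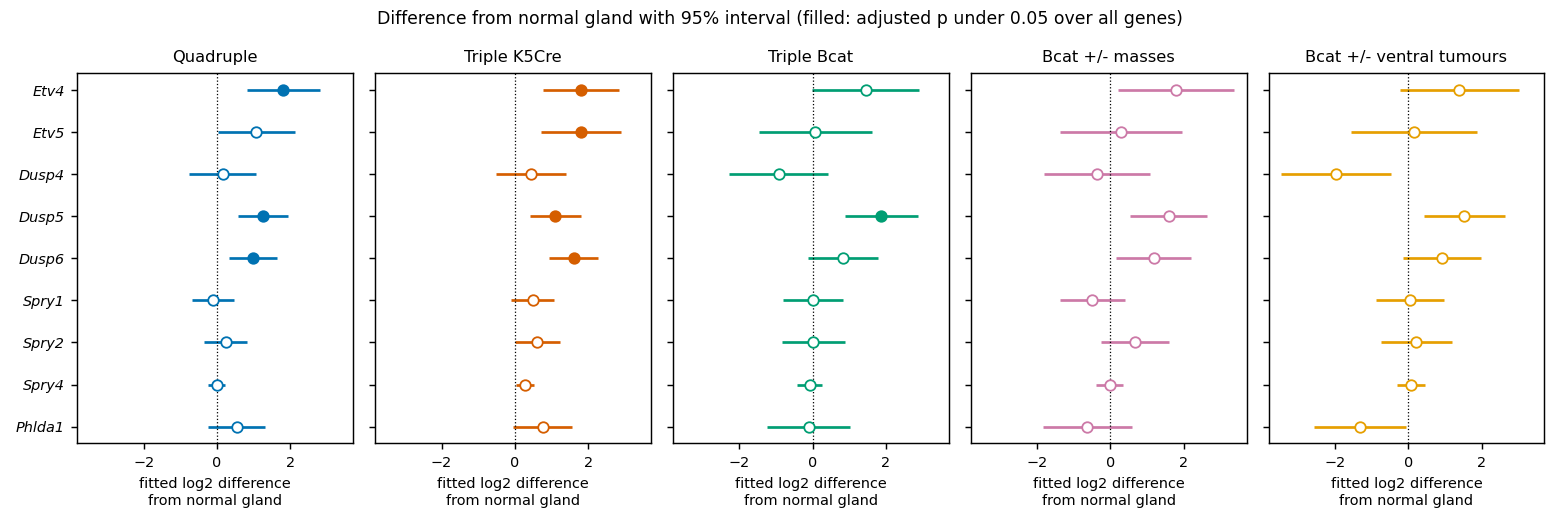
Fitted log2 difference from normal gland (horizontal axis) of the 9 genes in the 5 other groups, with 95% intervals; filled points passed an adjusted p of 0.05 over all genes. Filled points are Etv4, Dusp5 and Dusp6 in quadruple, these and Etv5 in triple K5Cre, and Dusp5 in triple Bcat; with fat and muscle markers as covariates none passed, and the signs of Etv4 in both groups and of Dusp6 in quadruple turned.

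Between quadruple and the other breast and tumour groups no member passed. Against triple K5Cre 0 of 9 passed, and 0 of all genes (0%). The fitted differences, quadruple minus triple K5Cre, were -0.61 for Dusp6 (95% interval -1.12 to -0.10), -0.59 for Spry1 (-1.03 to -0.15) and -0.27 for Spry4 (-0.46 to -0.09), the 3 members at an unadjusted p under 0.05 (4.46% of all genes), all with an adjusted p of 0.995. Etv4 differed by -0.01 with an interval of -0.79 to 0.78, which leaves room for a difference of that size in either direction. Against triple Bcat 0 of 9 passed beside 0.0330% of all genes, and no member had an unadjusted p under 0.05, against 8.39% of all genes; the largest difference was 1.07 for Dusp4 (-0.07 to 2.22). Against the masses 0 of 9 passed beside 0.214% of all genes, and Phlda1 was 1.18 higher in quadruple (0.12 to 2.23, unadjusted limma p = 0.0307, adjusted p = 0.555), the 1 member under an unadjusted 0.05 beside 8.09% of all genes. Against the ventral tumours 0 of 9 passed beside 0.143% of all genes. There Dusp4 was 2.12 higher in quadruple (0.80 to 3.44, adjusted p = 0.303) and Phlda1 1.85 higher (0.74 to 2.96, adjusted p = 0.275), the 2 members at an unadjusted p under 0.05, beside 9.43% of all genes. Dusp5 differed by -0.27 there (-1.24 to 0.69) and Dusp6 by 0.07 (-0.87 to 1.00).

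Single arrays differed in which members were high. Triple K5Cre array 5 (animal T817), quadruple array 14 (Q535) and quadruple array 13 (Q520) were each among the 10 highest of 39 arrays for 7 of the 9 genes. The T627 breast array was the highest of all in Etv5 (11.10), Dusp6 (12.66) and Spry2 (9.77) but read 7.17 in Etv4, rank 28. Quadruple array 2 and quadruple array 10 were each among the 10 lowest for 7 genes, and array 10 was also the second highest in Dusp5 (9.43).

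Samples of animal Q648 spanned much of the quadruple range in some members and less in others. The 3 arrays of animal Q648 read 8.99, 6.29 and 7.79 in Etv4, 8.69, 7.71 and 5.64 in Dusp4, and 11.11, 9.45 and 9.87 in Dusp6. These ranges of 2.69, 3.05 and 1.65 were 85.0%, 71.9% and 86.4% of the range over all 19 quadruple arrays, which include these 3. In the other members the share ran from 19.2% (Etv5) through 33.7% (Spry1) and 39.7% (Phlda1) to 77.4% (Spry4). The adipocyte mean of the same 3 arrays was 5.83, 10.58 and 6.82 and the squamous mean 7.13, 5.66 and 12.74, and their part in these ranges was not tested. In contrast, the 2 arrays of Q190 differed by at most 0.14 in any member and those of Q2154 by at most 0.71.

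Animals T627 and T635 gave both a breast and a gland array. Dusp6 was higher in breast by 2.84 in T627 and 1.11 in T635, Etv5 by 3.31 and 1.44, and Dusp5 by 0.94 and 1.73. Etv4 was higher by 0.72 in T627 and 2.36 in T635, so Etv4 and Dusp5 differed more in T635, and Dusp6 and Etv5 more in T627. Spry2 and Phlda1 differed by 2.26 and 2.36 in T627 and by 0.10 and -0.04 in T635, so what the pair showed for these members came from T627. When the animal entered as a fixed block over these 4 arrays, none of the members was called, and none of all genes.

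Other genes of the pathway were described from 4 lists, also chosen with earlier results of these data known. Of all genes tested, 5.70% were called higher in quadruple, 7.44% in triple K5Cre and 1.74% in triple Bcat. In either direction 7.28% were called in the masses and 4.03% in the ventral tumours. Of 12 measured ERK-induced genes outside the 9, 4 rose in quadruple, 6 in triple K5Cre, 4 in triple Bcat, 2 in the masses and 0 in the ventral tumours, and 0 fell in any group. Egr3, an immediate early zinc finger factor, rose by 2.62 in quadruple, 2.47 in triple K5Cre and 3.47 in triple Bcat, and Epha2, an ephrin receptor, by 1.59, 2.07 and 1.94. Fosl1, an AP-1 subunit, rose in the masses (2.43, adjusted p = 0.0477). The median difference of this list was 0.88 in quadruple and 1.34 in the ventral tumours, where none of the 12 passed. Of 15 other negative regulators, 2 rose in quadruple, 1 in triple K5Cre and 1 in the masses, and 0 in triple Bcat or the ventral tumours. These few calls are not read as a trait of the list. Dusp7, a sister phosphatase of Dusp6, made up most of these, with 0.99 in quadruple (SE 0.25, adjusted p = 0.00474), 0.90 in triple K5Cre and 1.45 in the masses.

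Upstream of the members, Fgf10, a stromal ligand of FGF receptors, was the gene of 13 receptors and ligands measured that fell in all 5 groups, by 2.26 in quadruple, 2.35 in triple K5Cre, 2.27 in triple Bcat, 2.66 in the masses and 2.44 in the ventral tumours. It fell beside the adipocyte markers given above, whose part in this fall was not tested. The EGF receptor ligand genes Ereg and Hbegf rose in triple K5Cre by 4.21 (SE 1.25, adjusted p = 0.0159) and 2.72 (SE 0.88, adjusted p = 0.0274), and Hbegf in triple Bcat by 3.98. In this list 0 rose and 1 fell in quadruple, and 4 rose and 2 fell in triple K5Cre, Met among the latter (-1.07). Of all genes 15.4% were called in either direction in quadruple and 17.2% in triple K5Cre. Among 12 measured adaptors and core kinases, Nras rose by 0.51 in quadruple and 0.59 in triple K5Cre, Map2k2, which codes for a MEK kinase, by 0.34 and 0.30, and Ptpn11, the gene of the phosphatase SHP2, fell by 0.38 and 0.33. Ksr1, a scaffold of the cascade, fell by 1.00 in triple K5Cre, and Map2k1 rose by 1.01 in the masses.

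Within the quadruple group Etv4 varied with Dusp6 and with Spry2 from animal to animal, and most other pairs did not pass. Over the means of 15 animals, 26 of 36 pairs of members had a positive Pearson r, with a median of 0.206 and a range of -0.407 (Dusp5 and Spry1) to 0.863. Etv4 and Dusp6 had r = 0.863 (permutation p = 3.00e-05, adjusted over 36 pairs 0.00108; Spearman 0.764, permutation p = 0.00121, adjusted 0.0436), and 0.752 without the 2 animals farthest from the median of Etv4. Etv4 and Spry2 had r = 0.770 (permutation p = 0.00106, adjusted 0.0191; Spearman 0.679, permutation p = 0.00713, adjusted 0.0861), and 0.626 without those 2 animals. The other 34 pairs did not pass by Pearson. Over the 19 arrays taken singly, which repeat animals, 5 of 36 passed. The adipocyte mean correlated with Etv4 at -0.595 and with Dusp6 at -0.602 over the same animals (adjusted over 63 relations 0.152 and 0.089, permutation test), and at -0.221 and -0.255 without the 2 animals farthest in the adipocyte mean. The mitosis mean correlated with Etv4 at 0.631 and with Dusp6 at 0.686 (adjusted 0.089 and 0.0748, permutation test), and at 0.419 and 0.508 without the 2 animals farthest in it. For Dusp5 the r was 0.053 with Etv4 and 0.006 with Dusp6.

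**Figure D4:**
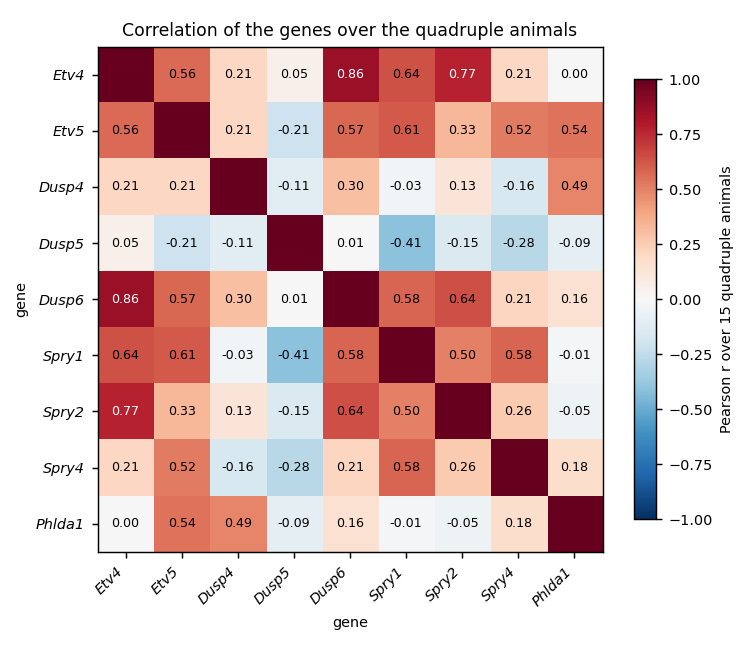
Pearson r of each pair of the 9 genes over the means of 15 quadruple animals (both axes list the genes; colour and number give r). Etv4 with Dusp6 (0.86) and with Spry2 (0.77) are the highest, and the row of Dusp5 holds values near or below 0.

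Genes tested, other members and clone names left out, were ranked by Pearson r with each member over the 15 quadruple animals. Those most like each member were named by the highest r, as a description with no p. For Etv4 they were Piga (0.921) and Dcbld1 (0.908). Among all genes, members included, Dusp6 ranked 11 for Etv4, and Etv4 ranked 3 for Dusp6 (0.863). For Etv5 they were Cand2 (0.924) and Csrnp2 (0.907). For Dusp4 they were Mug1 (0.865) and Defa39 (0.836), for Dusp5 Zfp444 (0.945) and N4bp1 (0.892), and for Dusp6 Kpna2 (0.888), an importin, and Mllt11 (0.863). For Spry1 they were Zfhx4 (0.943) and Il17rd (0.941), which codes for a membrane inhibitor of FGF and ERK signalling. For Spry2 they were Plod2 (0.887) and Btbd11 (0.885), for Spry4 Grin3a (0.850) and Mc5r (0.840), and for Phlda1 Smyd5 (0.938) and Marveld3 (0.920). The 15 points share the genotype and tissue labels, and the highest of 18194 values is high by its choice.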

How the data were processed

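Total RNA of 39 mouse samples was hybridised to Affymetrix 3' expression arrays, per the labels' protocols. The authors computed the deposited log2 values of 45101 probe sets with RMA (background correction, normalization between arrays and summary per probe set), per the submitters' processing notes, which name no version. Values ran from 1.65 to 14.61 and array medians from 5.10 to 5.27. Low values were not separated from background, since no detection calls entered, and precision is limited by how many arrays there are.

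Gene names came from the platform's annotation table, updated through RefSeq: 34958 carried 1 gene, 932 several and 9211 none, and 204 kept the platform's symbol. Each of 18194 genes was represented by its probe set with the highest mean, cross-hybridising sets only where no other existed. A limma fit (R 4.3.3, limma 3.58.1, statmod 1.5.0) gave each of 6 groups a mean over all 39 arrays, with the 30 animals as a random block (duplicateCorrelation, consensus 0.329) and an intensity trend in eBayes. Arrays of an animal are weighed jointly under the block, so fitted differences can depart from those of raw means. Tests are two-sided, and a call means a p below 0.05 after Benjamini-Hochberg adjustment across all genes, in each of 9 comparisons. P-values measure the spread between samples that the labels name as separate, pooled over the 6 groups. Where arrays share an animal, part of that spread may be technical. The ventral tumours, from a single animal, have no spread between animals of their own. Their tests take it from the other groups.

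Correlations over quadruple animals used Pearson and Spearman permutation tests with 100000 resamples (smallest p 1e-05; Python 3.11.15, scipy 1.17.1), adjusted over 36 pairs of members, or over 63 relations of members with marker means.

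The members and all gene lists were chosen with earlier results of these data known. Named are all 9 members, up to 2 rises and 2 falls per pathway list and comparison, and the 2 genes most like each member. For the latter, other members and clone names were skipped. Junb, Ier2 and others past the number of rises and falls are counted only. Some genes of the lists are not reported here. Promoter windows came from RefSeq, build GRCm38.p6.

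Alternatives were no block, animal means, a filter on low genes, cyclic loess, array weights, a gene value averaged over its probe sets, adipocyte and muscle covariates, a paired fit and leaving out arrays. Added after the data were seen were fits that left out the 3 arrays with little Xist, without quadruple array 2, without triple K5Cre arrays 2 and 5, and over all probe sets. Fits with arrays left out and over all probe sets kept the consensus correlation of the full fit.

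The fit was tested on simulated data with known changes. Of 100 genes changed by 1 against gland, it called 69 in quadruple, 77 in triple K5Cre and 58 in triple Bcat. In the masses it called 47 and in the ventral tumours 53, so changes of that size were often missed. Between 5 and 12 unchanged genes were called in these comparisons.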

Additional observations from a re-analysis of the deposited data

Results flagged for a closer look

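In the triple K5Cre group the breast array of animal T627 (array 2) read 9.77 in Spry2, an inhibitor of receptor signalling, far from the other 7: the next read 8.54 and the lowest 7.44. Its distance to the next was 0.529 of the group's range, just past Dixon's 95% limit for 8 arrays. Chance marks about 1 in 20 groups, and 18 groups of a member were examined in this way, of which 1 was marked. The same array was the highest of the 39 in Etv5 and Dusp6 and is 1 of the 3 arrays low in Xist. It read 5.74 in the keratin gene Krt5, against at least 9.12 on every other array. It also had the lowest squamous mean (4.56) and the highest Epcam (13.30) of the 39, and the part of these was not tested. Without this array the difference of Spry2 between triple K5Cre and gland was 0.24 (limma, adjusted p = 0.613), against 0.61 with it (adjusted p = 0.170).

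Phlda1 lay above the gland mean on all 8 triple K5Cre arrays, on average by 0.68, and below it on all 3 ventral tumour arrays, on average by -1.38, and on both arrays of the masses, on average by -0.70. The difference between these groups was not tested directly, and the 3 ventral tumour arrays come from 1 animal.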

How the results depend on the processing

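Of 119 counts of called members or pairs under an alternative, 104 stayed within 1.5 times of the reported count. A count of 0 that stayed 0 is scored among these. The reported count was 0 in every comparison except quadruple, triple K5Cre and triple Bcat against gland. Of 1053 single differences 28 lost a call in the same direction, 19 gained one and 79 turned in sign, 3 of them called before the change and 76 called neither before nor after. Of these turns 22 were among the 81 differences with adipocyte and muscle covariates. With adipocyte and muscle covariates the count of members called against gland was 0 in quadruple (3 as reported), 0 in triple K5Cre (4) and 0 in triple Bcat (1), and Etv4 turned to -0.0238 in quadruple and -0.0619 in triple K5Cre, and Dusp6 to -0.0410 in quadruple. With array weights, under which 23.23% to 36.17% of all genes were called in those comparisons, 3 members passed in triple Bcat, 3 in the masses and 5 in the ventral tumours (3 higher, 2 lower), and 2 between quadruple and the ventral tumours. Without the replicate block 2 passed in the ventral tumours (1 higher, 1 lower) and 2 between quadruple and the ventral tumours, while Dusp6 in quadruple (limma, adjusted p = 0.0506) and Etv5 in triple K5Cre (0.0557) were lost. With the 2 animals that gave both tissues as a fixed replicate block, on 4 arrays, 0 passed in triple K5Cre. Without the arrays low in Xist 2 passed in triple K5Cre. Over all 19 quadruple arrays 5 pairs of members passed in place of 2. Leaving out arrays gave 2 to 4 members in triple K5Cre (2 without gland array 3 or 4), 0 to 1 in triple Bcat (0 without triple Bcat array 1) and 2 to 3 in quadruple. The filter on low genes left Spry4 untested. The causes of these changes were not tested. The limit here is the number of gland arrays, 4, and of animals in the last 3 groups, 2, 2 and 1, and the confounding of tissue makeup with the comparison.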

Other observations

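Over the 15 quadruple animals the 9 genes were also set against the means of 7 marker lists. None of the 63 relations passed after adjustment, by Pearson or by Spearman. The highest was Etv5 with the mitosis mean (r = 0.741, Spearman 0.782, permutation test, adjusted 0.0748 and 0.0743, and r = 0.641 without the 2 animals farthest in the mitosis mean). The lowest was Phlda1 with the fibroblast mean (r = -0.707, Spearman -0.721, permutation test, adjusted 0.0748 and 0.0992, and r = -0.659 without the 2 farthest animals). Dusp5, the phosphatase that varied least with the other members, had 0.660 with the neutrophil mean (Spearman 0.682, permutation test, adjusted 0.0748 and 0.131, and r = 0.578 without the 2 farthest animals). With the squamous mean Dusp5 had 0.541 (Spearman 0.518, permutation test, adjusted 0.196 and 0.228, and r = 0.707 without the 2 farthest animals).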
